A study of Mus musculus with 2 samples.

Results

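Chromatin accessibility was described at 10 genes of the Notch pathway in the organ of Corti (OC), the sensory epithelium of the cochlea. The genes were the receptor Notch1, the ligands Jag1, Jag2 and Dll1, the glycosyltransferase Lfng, and the targets Hes1, Hes5, Hey1, Hey2 and Heyl, out of 21938 protein-coding genes. A peak belonged to a gene if its centre was within 3 kb of any of its transcription start sites (TSSs), here called a promoter peak, or in the gene body or the 10 kb upstream. By this rule the genes held 31 of 77596 peaks in the list labelled WT and 33 of 100431 peaks in the list labelled Bmi1-/-. The peaks came from ATAC-seq, in which the Tn5 transposase cuts and tags open DNA. The samples were the OC of WT and Bmi1-/- littermates at P2, with 1 library from 10 pooled mice per genotype. The line, FVB.129P2-Bmi1tm1Brn/MvlJ backcrossed to C57BL/6J, lacks Bmi1 in every cell, so a difference cannot be assigned to a cell type of the OC. The comparison asks how loss of Bmi1, a subunit of Polycomb repressive complex 1, alters open chromatin.

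With 1 library per genotype, no difference was tested against the spread between animals, and the intervals below cover counting error only. All 77826 deposited peaks labelled WT and all 100668 labelled Bmi1-/- have names that carry the prefix of the other genotype, so every direction below depends on the labels. The libraries differed in local background, which stands in for depth here because read totals are unknown. The local background found most often was 6.32 reads for peaks labelled WT and 8.04 for peaks labelled Bmi1-/-, a ratio of 1.27. At these commonest backgrounds, the lowest summits listed had 13 and 15 reads. A q-value under 0.05 was reached by 52.4% of peaks labelled WT and 62.9% labelled Bmi1-/-. Promoter peaks were present at 8 of 10 hair cell markers in each list, and at 9 (labelled WT) and 8 (labelled Bmi1-/-) of 10 supporting cell markers. The counts were 6 and 8 of 10 for neurons, 6 and 5 for glia, 4 and 5 for mesenchyme, 3 and 4 for blood and macrophages, and 8 and 7 for endothelium. By comparison, 59.1% (labelled WT) and 68.2% (labelled Bmi1-/-) of all protein-coding genes had a promoter peak. With 10 markers per set, counts near these shares, as for neurons, glia and endothelium, cannot tell a cell type from other genes. The counts for hair cells and supporting cells were close to those for endothelium, so they do not identify the tissue either. Only the counts for mesenchyme and for blood and macrophages were below both shares. Sox2, a supporting cell factor, and Pou4f3, a hair cell factor, had a promoter peak in both lists, although the Pou4f3 peaks did not overlap. The hair cell marker Tmc1 and the supporting cell marker Fabp7 had one in neither list. Among the blood markers, Ptprc, the pan-leukocyte marker, had a promoter peak in neither list, and Runx1 had overlapping ones in both. Endothelial cells also use Notch signalling, and the part of each cell type in the peaks described here was not tested.

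Notch signalling acts between touching cells. A Jagged or Delta ligand on a cell binds the receptor on its neighbour, proteases release the intracellular domain of the receptor, and this domain joins the DNA-binding protein RBPJ in the nucleus to switch on Hes and Hey genes. Hes and Hey proteins are repressors that bind E boxes and N boxes. In the developing OC, hair cells present Dll1 and Jag2 and hold their neighbours in the supporting cell fate through Notch1, while Jag1 marks the prosensory region and later the supporting cells. Hes1, Hes5 and the Hey factors restrain Atoh1, the proneural factor of hair cells.

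Sequences are given because the results turn on them, all on GRCm38 and 5′ to 3′ on the strand of the gene. The first set shows the bases before the start of Lfng, Hes5 and Hey2, from the RefSeq promoter table of GRCm38.p6, which matched 7 of the 10 genes and not Hes1, Hey1 and Heyl. These are the matched promoters that hold the core word of RBPJ, TGGGAA, on either strand, which is in capitals.
Lfng, chr5:140607091-140607319 on the + strand: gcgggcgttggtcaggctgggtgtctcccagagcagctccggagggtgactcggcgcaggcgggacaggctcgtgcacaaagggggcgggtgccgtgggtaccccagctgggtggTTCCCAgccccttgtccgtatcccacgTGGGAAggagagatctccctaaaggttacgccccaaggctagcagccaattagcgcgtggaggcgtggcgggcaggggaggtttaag
Hes5, chr4:154960673-154960922 on the + strand: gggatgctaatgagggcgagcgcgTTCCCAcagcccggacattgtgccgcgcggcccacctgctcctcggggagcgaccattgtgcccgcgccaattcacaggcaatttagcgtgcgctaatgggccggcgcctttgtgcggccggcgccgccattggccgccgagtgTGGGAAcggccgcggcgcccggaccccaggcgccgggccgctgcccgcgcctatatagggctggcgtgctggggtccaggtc
Hey2, chr10:30842802-30843033 on the − strand: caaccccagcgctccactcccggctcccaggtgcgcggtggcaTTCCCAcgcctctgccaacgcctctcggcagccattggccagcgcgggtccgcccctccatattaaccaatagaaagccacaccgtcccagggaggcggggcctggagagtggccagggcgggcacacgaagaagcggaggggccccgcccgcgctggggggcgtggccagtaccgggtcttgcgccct

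The second set is the strongest peak of all 10 genes, in an intron of Notch1, as 300 bases around its summit in the list labelled WT. The third set is a pair of regions with a peak in the list labelled Bmi1-/- and no overlap in the list labelled WT, in an intron of Jag1 and in a coding exon of Hey2. Here the capitals mark the bases at the summit. None of these windows holds TGGGAA on either strand.
Notch1, chr2:26502475-26502774 on the − strand: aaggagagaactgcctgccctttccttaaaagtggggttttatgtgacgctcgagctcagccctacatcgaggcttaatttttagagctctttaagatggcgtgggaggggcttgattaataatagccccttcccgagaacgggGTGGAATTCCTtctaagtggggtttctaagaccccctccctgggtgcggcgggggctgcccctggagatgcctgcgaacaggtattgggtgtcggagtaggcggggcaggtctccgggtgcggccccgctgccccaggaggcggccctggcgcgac
Jag1, chr2:137115941-137116240 on the − strand: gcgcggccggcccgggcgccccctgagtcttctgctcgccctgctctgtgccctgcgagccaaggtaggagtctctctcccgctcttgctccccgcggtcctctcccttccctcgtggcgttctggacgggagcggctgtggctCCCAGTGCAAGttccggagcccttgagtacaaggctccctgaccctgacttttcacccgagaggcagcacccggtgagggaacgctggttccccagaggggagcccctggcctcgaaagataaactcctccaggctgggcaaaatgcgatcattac
Hey2, chr10:30834051-30834350 on the − strand: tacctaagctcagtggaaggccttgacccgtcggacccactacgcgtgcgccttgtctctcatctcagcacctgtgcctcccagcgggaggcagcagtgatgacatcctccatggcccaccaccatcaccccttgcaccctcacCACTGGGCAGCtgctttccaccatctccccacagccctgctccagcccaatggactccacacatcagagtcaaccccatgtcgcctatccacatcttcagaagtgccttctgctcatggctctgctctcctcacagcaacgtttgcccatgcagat

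A promoter peak was present at 9 of the 10 genes in the list labelled WT, all but Lfng, and at 8 in the list labelled Bmi1-/-, all but Lfng and Hes5. The shares were 90.0% (exact binomial 95% interval 55.5 to 99.7) and 80.0% (44.4 to 97.5), where all protein-coding genes had 59.1% and 68.2%. Promoter peaks of both lists overlapped by at least 1 bp at 6 genes, Notch1, Jag1, Dll1, Hey1, Hey2 and Heyl (60.0%, 26.2 to 87.8), beside 40.4% of protein-coding genes. Lfng alone had no promoter peak in either list, as was the case for 25.7% of protein-coding genes. Promoters were wide here because several genes have many annotated starts, 11 for Notch1 and 10 for Jag2. The order of the lists did not hold at a q-value under 0.05, where 6 genes labelled WT and 7 labelled Bmi1-/- had a promoter peak. With only the principal transcript's start, 7 genes kept a promoter peak in each list and 5 had overlapping ones. The shares of protein-coding genes given above use every annotated start, so they are not a match for these counts.

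The strength of a peak was read as its percentile within its own list by −log10 p. The strongest promoter peak had the higher percentile in the list labelled Bmi1-/- at 4 of 9 genes, Jag1, Hes1, Hey2 and Heyl (44.4%, 13.7 to 78.8), beside 68.6% of protein-coding genes. With peaks limited to a q-value under 0.05, and percentiles taken anew among the peaks kept, it was 5 of 7 genes. Hes1 counted there because its promoter peak labelled WT was lost. No share over protein-coding genes at this threshold is set beside that count. The percentile was higher in the list labelled WT at Notch1, Jag2, Dll1, Hey1 and, where only that list had a peak, Hes5. At Jag1, Jag2, Hes1 and Heyl the strongest promoter peaks of the lists did not overlap, so their percentiles belong to different positions. Both overlapping promoter pairs of Jag1 had the lower percentile in the list labelled Bmi1-/-, and that of Heyl had the higher. The median percentile was 85.2 over the 9 genes in the list labelled WT and 95.3 over the 8 in the list labelled Bmi1-/-. Over protein-coding genes with a promoter peak it was 76.8 and 87.3.

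**Figure D1:**
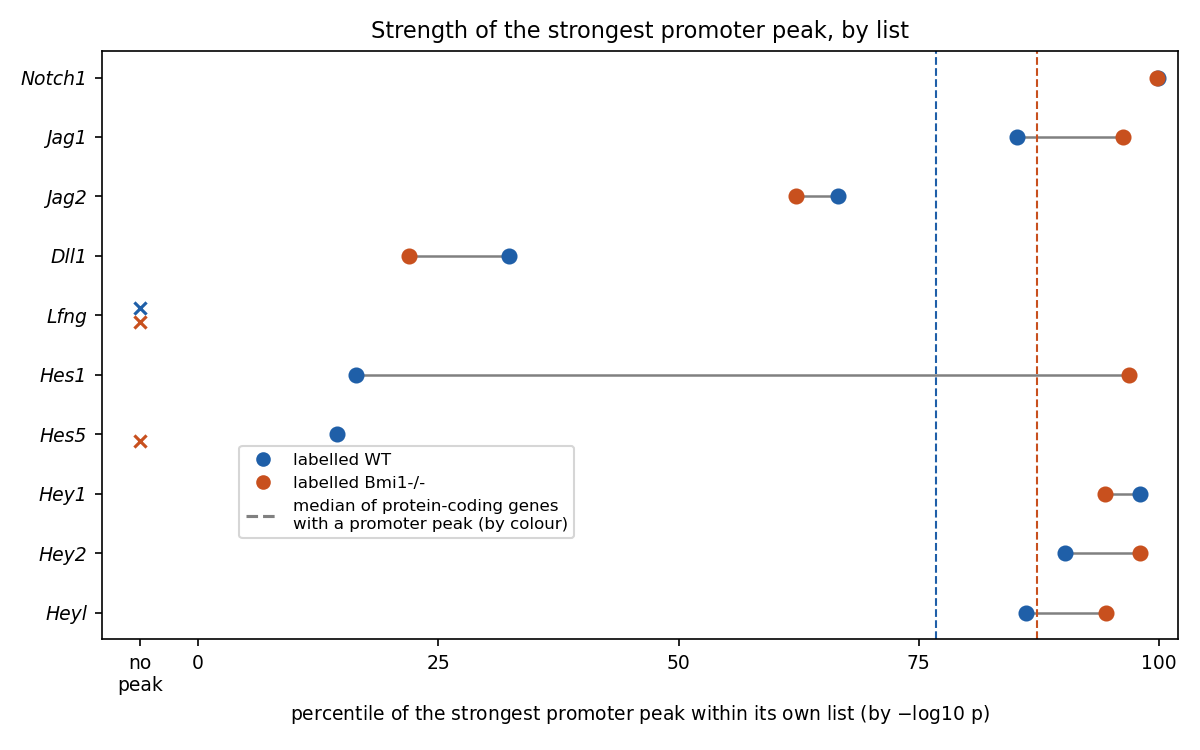
Percentile of the strongest promoter peak of each gene within its own list (x axis, by −log10 p), with 1 point per list and crosses where no promoter peak was listed. Dashed lines mark the medians over protein-coding genes, 76.8 labelled WT and 87.3 labelled Bmi1-/-. Hes1 shows the widest gap, between 16.4 and 96.9, and the points of Notch1 coincide near 99.9 and 99.8.

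Notch1 (chr2:26457903-26516663, − strand) held 9 peaks labelled WT and 10 labelled Bmi1-/-. The principal transcript starts at chr2:26503822, inside the annotated gene, and the strongest peak of each list had its summit about 1.2 kb downstream of it, in intron sequence. In the list labelled WT this peak (chr2:26502473-26502776) had 82 reads over a background of 13.6, and its fold enrichment was 5.68 at a −log10 q of 31.2. In the list labelled Bmi1-/- (chr2:26502452-26502771) it had 75 reads over 17.8, and its fold enrichment was 4.05 at a −log10 q of 19.1. The summits were 2 bp apart, and both peaks were among the top of their lists. The read ratio was 0.915, with an exact conditional 95% interval of 0.660 to 1.27 whose upper bound was just under the ratio of the backgrounds.

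A weaker peak lay on the Notch1 start itself, in 5′ untranslated sequence, with 33 reads and a fold enrichment of 2.41 in the list labelled WT (percentile 86.1), and 35 reads and 1.94 in the list labelled Bmi1-/- (percentile 49.7). Other pairs overlapped upstream of the start. The strongest peak outside promoters was about 21.7 kb upstream (chr2:26525399-26525907, labelled Bmi1-/-), with 31 reads, a fold enrichment of 2.78 and percentile 92.3, over a peak labelled WT with 17 reads, 2.43 and percentile 34.3. Its read ratio of 1.82 had an interval of 0.979 to 3.51, which includes the ratio of the backgrounds. Within the gene body, 3 peaks toward the 3′ end in the list labelled WT and 5 peaks in the list labelled Bmi1-/- had no overlap. The strongest of the former was at percentile 64.1 with 26 reads, and of the latter at 81.1 with 36 reads in an intron (chr2:26488007-26488408).

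Among the ligands, Jag1 (chr2:137081456-137116644, − strand) had the strongest promoter peaks and Dll1 the weakest. In the list labelled WT, Jag1 had a peak just upstream of the start (chr2:137116762-137117262, summit 472 bp upstream) with 27 reads, a fold enrichment of 2.59 and percentile 85.2, and a peak in intron sequence 2094 bp downstream with 26 reads and 2.37. Both overlapped peaks labelled Bmi1-/-, with 31 reads, a fold enrichment of 1.98 and percentile 39.5, and 29 reads, 1.76 and percentile 9.59. The intronic peak labelled WT was at percentile 67.0. The list labelled Bmi1-/- held a further peak between them (chr2:137115973-137116255), with its summit in the intron 553 bp downstream of the start. It had 44 reads over 15.4, a fold enrichment of 2.74, a −log10 q of 5.46 and percentile 96.2, and the nearest peak labelled WT was 507 bp away. Its strongest peak outside promoters (chr2:137100944-137101354), 15.6 kb downstream in an intron and labelled Bmi1-/-, had 25 reads and percentile 51.3. The Jag1 start thus had 2 peaks in the list labelled WT against 3 in the list labelled Bmi1-/-.

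Jag2 (chr12:112907819-112929776, − strand) had no peak within 3 kb of its principal start in either list. Its promoter peaks lay at annotated starts inside the gene body. The strongest was in a coding exon 18.6 kb downstream of the principal start in the list labelled WT (chr12:112911082-112911338), with 27 reads, a fold enrichment of 2.33 and percentile 66.6. In the list labelled Bmi1-/- it was in an adjoining intron (chr12:112910470-112910758), with 31 reads, 2.12 and percentile 62.2, and the peaks were 324 bp apart. The strongest peak outside promoters, 3.11 kb upstream of the principal start and labelled WT (chr12:112932799-112933026), had 26 reads and percentile 32.1.

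Dll1 (chr17:15367354-15376872, − strand) had 3 peaks in each list, all with a q-value above 0.05. The overlapping pair lay in a coding exon about 7 kb downstream of the principal start (chr17:15368685-15369069 labelled WT and chr17:15368804-15369134 labelled Bmi1-/-). It had 17 reads, a fold enrichment of 2.39 and percentile 32.3 in the list labelled WT and 20 reads, 2.11 and percentile 22.0 in the list labelled Bmi1-/-. At the principal start, a peak labelled WT 552 bp downstream and a peak labelled Bmi1-/- 442 bp upstream did not overlap, with 17 and 22 reads. The strongest peak outside promoters (chr17:15381202-15381401, labelled Bmi1-/-) had 21 reads and percentile 35.3.

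Lfng (chr5:140607320-140615545, + strand) encodes the Lunatic fringe enzyme, which adds a sugar to Notch and shifts its response between ligands. It held a single peak per list, and neither was near its start. The peak labelled WT lay in the 3′ untranslated region (chr5:140614794-140615012), with 24 reads, a fold enrichment of 2.01 and percentile 18.6. The peak labelled Bmi1-/- lay 6.98 kb upstream (chr5:140600257-140600483), with 26 reads, 2.23 and percentile 54.1. The absence of a peak says that no summit reached the deposition threshold at this depth, not that the promoter was closed.

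**Figure D2:**
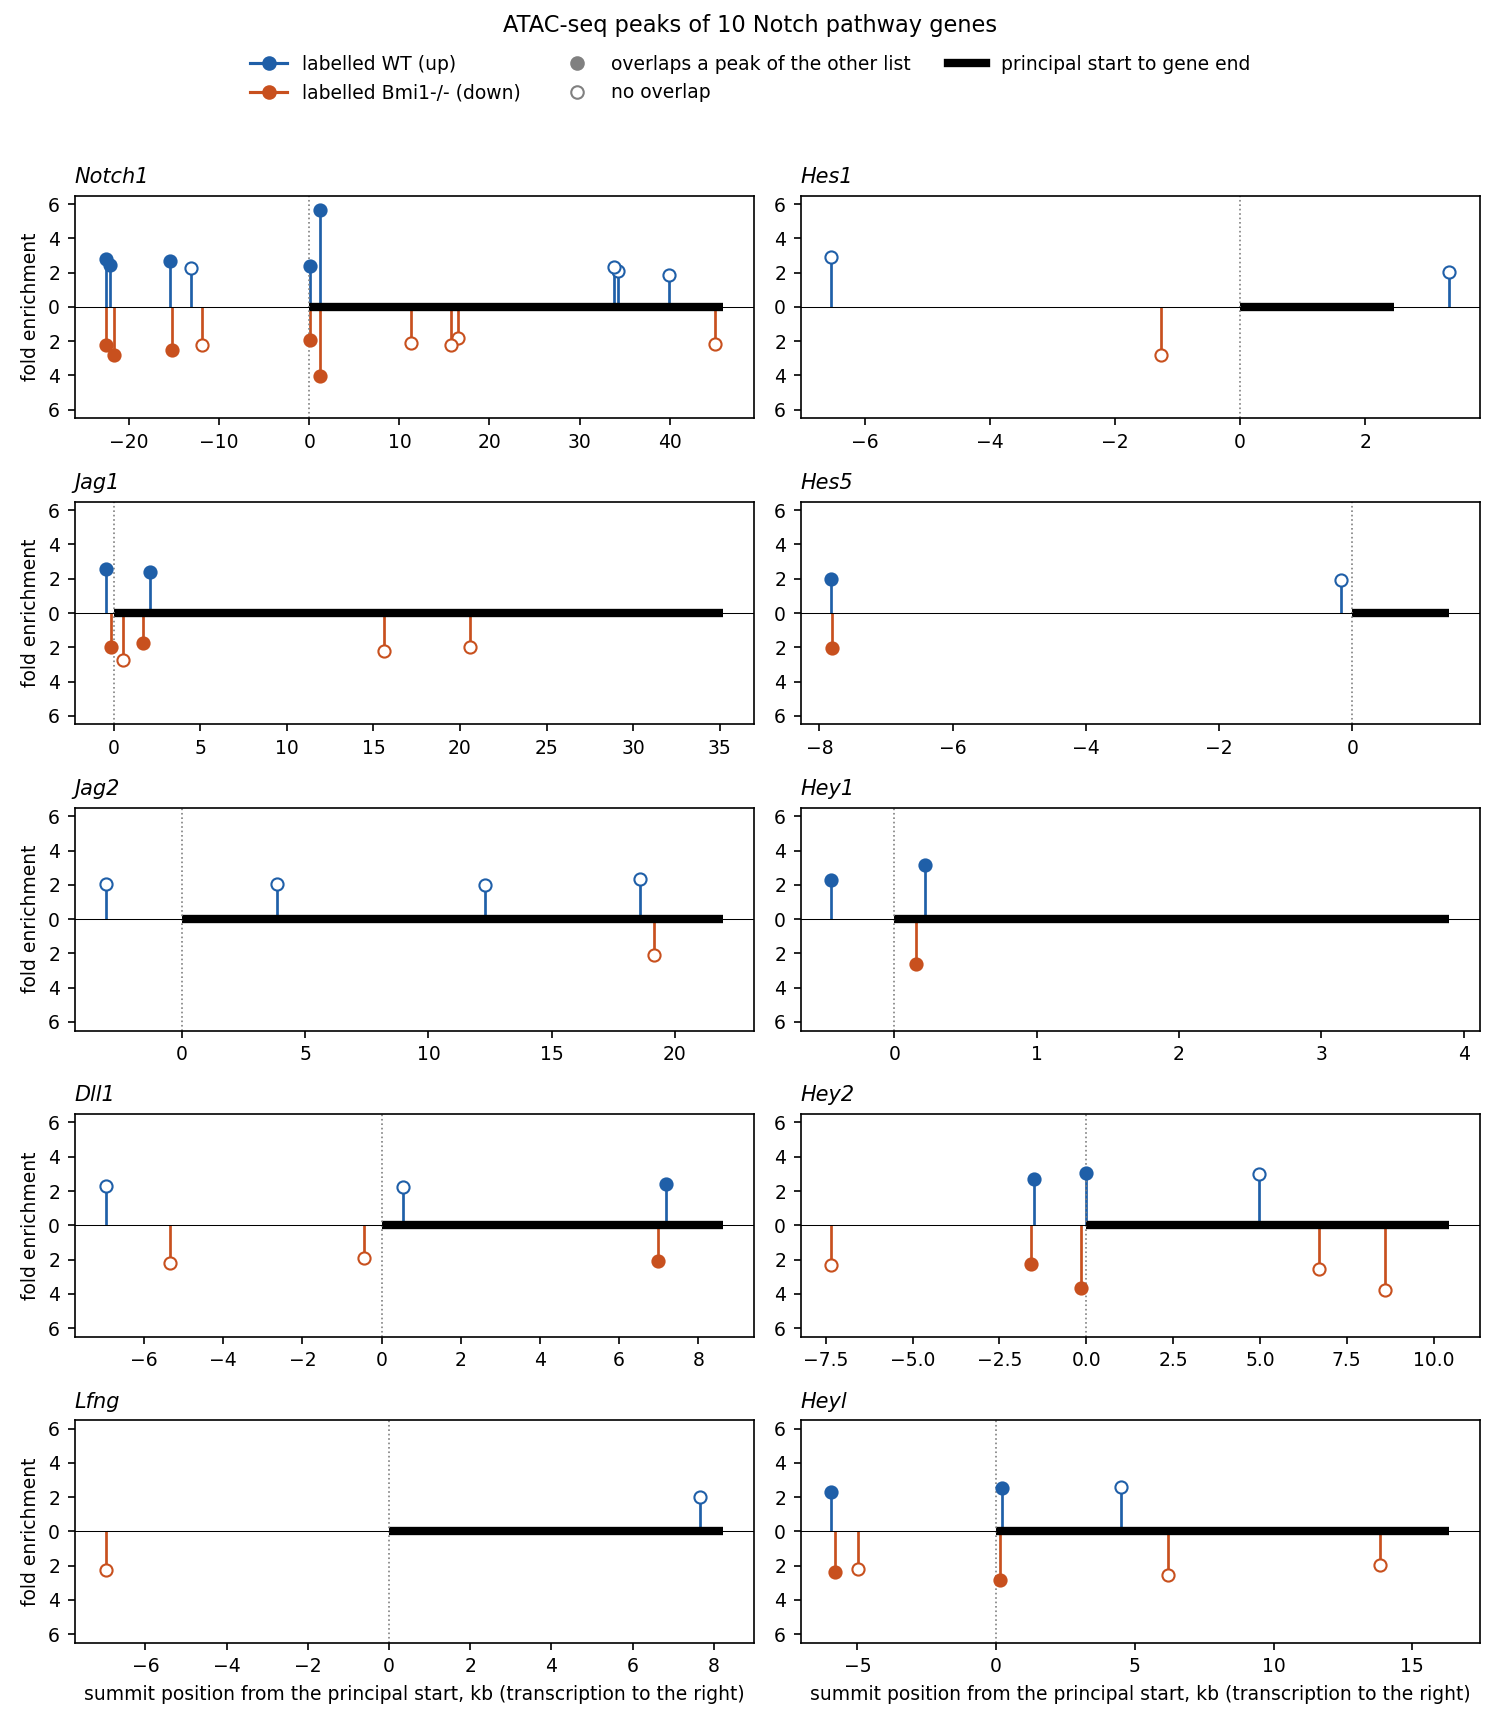
Peaks of the 10 genes by the position of their summit from the principal start (x axis, kb, with transcription to the right and a scale of its own in each panel) and their fold enrichment (y axis), labelled WT upward and labelled Bmi1-/- downward. Filled points overlap a peak of the other list and open points do not. The Notch1 peaks about 1.2 kb downstream of the start, at 5.68 and 4.05, are the tallest, and the panels of Jag2, Lfng and Hes1 have no filled point.

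Of the targets, Hes1 differed most in rank between the lists. Hes1 (chr16:30064384-30067796, + strand) encodes a repressor that keeps progenitors undifferentiated. The list labelled Bmi1-/- held a single Hes1 peak (chr16:30063794-30064396), with its summit 1267 bp upstream of the principal start and 311 bp upstream of the first annotated start. It had 46 reads over a background of 15.8, an enrichment of 2.80-fold, a −log10 q of 5.99 and percentile 96.9. The list labelled WT had no peak there. Its strongest Hes1 peak lay outside the promoters, 6.53 kb upstream of the principal start (chr16:30058484-30058898), with 27 reads over 8.70, a fold enrichment of 2.89 and percentile 93.4. Its promoter peak, downstream of the gene (chr16:30068652-30068960) and 2338 bp from an annotated start, had 21 reads, 2.06 and percentile 16.4. So the percentiles of 16.4 and 96.9 belong to different positions. With only principal starts, that peak labelled WT no longer counts as a promoter peak.

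Hes5 (chr4:154960923-154962371, + strand) is a Notch target of supporting cells in the neonatal OC. Its promoter peak was present only in the list labelled WT (chr4:154960715-154961005, summit 175 bp upstream). It was weak, with 24 reads over 11.9, a fold enrichment of 1.94, a −log10 q of 0.817 and percentile 14.5. This peak covers most of the printed Hes5 run, and the word at 82 bases before the start lies within it. A pair 7.8 kb upstream overlapped, with 22 reads and a fold enrichment of 1.99 in the list labelled WT and 27 reads and 2.03 in the list labelled Bmi1-/- (chr4:154952826-154953257, percentile 36.8).

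Each of the 3 Hey genes had an overlapping pair with summits within 500 bp of its principal start. Hey1 (chr3:8663359-8667256, − strand) had a pair of neighbouring peaks in the list labelled WT, the stronger at chr3:8666861-8667176 with 33 reads over 9.74, a fold enrichment of 3.17 and percentile 98.0, the weaker with 23 reads and 2.29. In the list labelled Bmi1-/- a single peak (chr3:8666818-8667816) touched both, with 40 reads over 14.7, 2.62 and percentile 94.3. No other Hey1 peak was listed. The −log10 q was 4.79 and 4.38. By percentile the Hey1 promoter was behind only that of Notch1 among these genes in the list labelled WT, while in the list labelled Bmi1-/- it was below the median of the genes.

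Hey2 (chr10:30832359-30842801, − strand), known for maintaining pillar cells, a type of supporting cell, had the strongest target promoter in the list labelled Bmi1-/-. The peak on its start (chr10:30842179-30843288) had 36 reads over 9.18, a fold enrichment of 3.63, a −log10 q of 7.41 and percentile 98.0. The overlapping peak labelled WT (chr10:30842731-30842982) had 22 reads over 6.60, 3.03, a −log10 q of 2.65 and percentile 90.2. The read ratio of 1.64 had an interval of 0.937 to 2.92, which includes the ratio of the backgrounds. Both peaks include bases of the printed Hey2 promoter. A second pair about 1.5 kb upstream had 19 and 21 reads. The exonic peak labelled Bmi1-/- (chr10:30833870-30834388), 8.6 kb downstream of the start, had 33 reads over 8.04, a fold enrichment of 3.76, a −log10 q of 7.12 and percentile 97.9. The nearest peak labelled WT was 3302 bp away, in an intron, with 21 reads over 6.32 and percentile 87.8.

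Heyl (chr4:123233556-123249875, + strand) had an overlapping pair next to its start, with 24 reads over 8.86, a fold enrichment of 2.54 and percentile 75.9 in the list labelled WT, and 35 reads over 11.7, 2.83 and percentile 94.5 in the list labelled Bmi1-/- (chr4:123233592-123234048). Near a second annotated start in the gene body, a peak labelled WT (chr4:123237951-123238255) with 28 reads and percentile 86.2 and a peak labelled Bmi1-/- (chr4:123239550-123240259) with 36 reads and percentile 92.1 did not overlap. The strongest peak outside promoters (chr4:123227093-123227974, labelled Bmi1-/-) lay 5.8 kb upstream, with 27 reads and percentile 72.7, over a peak labelled WT with 19 reads and percentile 32.4.

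Over all 10 genes, 15 of 31 peaks labelled WT overlapped a peak labelled Bmi1-/- (48.4%, 30.2 to 66.9), beside 24.8% of all peaks labelled WT. Of the 33 peaks labelled Bmi1-/-, 14 overlapped (42.4%, 25.5 to 60.8), beside 18.5% of all peaks labelled Bmi1-/-. Promoter peaks numbered 22 and 16, and peaks outside promoters 9 and 17. The shares over all peaks take in peaks at any position, and no share over promoter peaks alone is set beside these. The genes held 1.11 peaks per 10 kb in the list labelled WT against 1.23 in the list labelled Bmi1-/-, pooled over their regions, beside 0.454 and 0.570 over protein-coding genes. The median over the 10 genes had the opposite order, 1.28 labelled WT and 0.990 labelled Bmi1-/- (protein-coding genes, 0.511 and 0.656). With as many peaks taken from each list, the regions held 31 peaks labelled WT and 28 labelled Bmi1-/-. A q-value under 0.05 was reached by 16 peaks labelled WT (51.6%, 33.1 to 69.8) and 25 labelled Bmi1-/- (75.8%, 57.7 to 88.9). The median local background at these peaks was 9.74 and 11.7 reads, above the 6.44 and 8.04 over all peaks.

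In the 15 overlapping pairs the fold enrichment was the higher in the list labelled Bmi1-/- in 6 (40%), beside 47.9% of all 19222 pairs and 55.8% of the 11251 promoter pairs. The median ratio was 0.883, beside 0.990 over all pairs and 1.03 over promoter pairs. The pairs with a higher fold enrichment labelled Bmi1-/- were at Notch1, far upstream of its start, and at Hes5, Hey1, Hey2 and, in 2 pairs, Heyl. The single Hey1 peak labelled Bmi1-/- counts in 2 pairs. It was higher than the weaker peak labelled WT, with summits 597 bp apart, and lower than the stronger, with summits 61 bp apart. All pairs of Jag1 and Dll1 had the lower fold enrichment in the list labelled Bmi1-/-. The median ratio of reads was 1.21, beside 1.26 over all pairs. In 14 of 15 pairs the interval of the read ratio included the ratio of the backgrounds, 1.27, as it did in 98.1% of all pairs. At these read counts, no difference beyond that of the backgrounds was detectable in those 14 pairs. The exception was the intronic Notch1 peak described above.

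**Figure D3:**
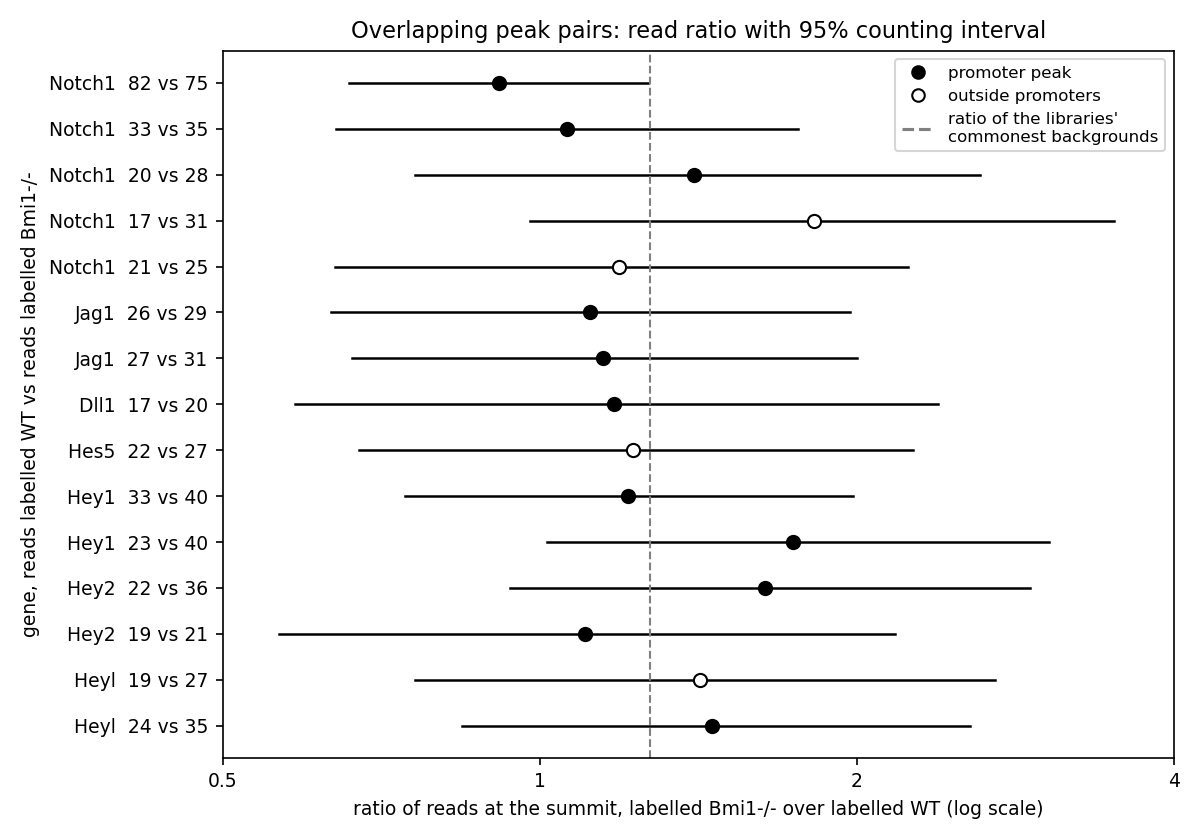
Ratio of reads at the summit, labelled Bmi1-/- over labelled WT (x axis, log scale), in the 15 overlapping pairs, with exact conditional 95% intervals for counting error. The dashed line is the ratio of the commonest backgrounds, 1.27. All intervals reach across it except that of the Notch1 pair with 82 and 75 reads, which ends just below it.

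With the −log10 q required to be 5 or more, the genes held 1 peak labelled WT, the intronic Notch1 peak, and 5 labelled Bmi1-/-, at Notch1, Jag1, Hes1 and, with 2, Hey2. Of these 5, the peaks of Jag1, Hes1 and the Hey2 exon had no overlap in the list labelled WT (60.0%, 14.7 to 94.7). Over the whole lists, 17.2% of the 4246 peaks labelled Bmi1-/- at this threshold had no overlap, and 9.19% of the 1262 labelled WT. Scaled down by the ratio of the backgrounds, the Hes1 peak corresponds to 36.2 reads in the library labelled WT (26.5 to 48.2). The lowest summit listed there had 18 reads, among peaks whose background lay within 0.25 reads of that of the nearest peak. The Jag1 peak corresponds to 34.6 reads (25.1 to 46.4) against 18, and the Hey2 exon peak to 25.9 (17.9 to 36.4) against 13. Among the 19 peaks labelled Bmi1-/- without overlap, the interval lay above this lowest count in 4, these 3 and the body peak of Heyl, beside 7.36% of the 81884 peaks labelled Bmi1-/- without overlap. Scaled the other way, this was so for 2 of the 16 peaks labelled WT without overlap, the Hey2 intron peak and the Heyl body peak, beside 18.9% of 58374.

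Of the 7 matched promoters, from 250 bases before to 50 after the RefSeq start, 3 held TGGGAA on either strand, beside 25.6% of 32851 promoters in the table. All 3 (Lfng, Hes5 and Hey2) also held the longer GTGGGAA, which contains it, beside 6.38% of promoters. In Hes5 the words lie 226 and 82 bases before the start on opposite strands, and in Lfng 135 and 108 bases before the RefSeq start. That Lfng start is 21 bp downstream of the GENCODE start, just before which the printed run ends. In Hey2 they lie 207 and 3 bases before the RefSeq start, of which only the first is in the printed run. The N box word CACNAG was in 2 of 7 promoters (42.5% of all) and the E box word CANNTG in 5 of 7 (72.3%). Within 150 bases of the summits of the matched genes, TGGGAA was in 10 of 24 windows labelled WT (41.7%, beside 25.6% of all peaks) and in 9 of 26 labelled Bmi1-/- (34.6%, beside 25.9%). GTGGGAA was in 6 of 24 and 2 of 26 (all peaks, 7.31% and 7.41%). Several windows share a gene and overlap between lists. The promoters had a GC content of 55.7% to 86.0% (median over all entries, 52.7%) and an observed over expected CpG ratio of 0.660 to 1.14 (median over all entries, 0.384).

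Of 46 other genes of the pathway, 39 had a promoter peak in the list labelled WT (84.8%) against 41 in the list labelled Bmi1-/- (89.1%). The shares over protein-coding genes were 59.1% and 68.2%. Promoter peaks of the lists overlapped at 26 of the 46, beside 40.4% of protein-coding genes. The strongest promoter peak had the higher percentile in the list labelled Bmi1-/- at 27 of 44 genes (61.4%, 45.5 to 75.6), beside the 68.6% given above for all genes. The median percentile was 67.0 labelled WT and 94.1 labelled Bmi1-/-. The other receptors Notch2, Notch3 and Notch4 had promoter peaks in both lists, and at all 3 the percentile was higher in the list labelled WT. It was higher in the list labelled Bmi1-/- at 2 of 5 other ligands, at 6 of 8 modifiers of receptors or ligands, at 7 of 9 proteases, at 3 of 7 genes of the nuclear complex and at 7 of 8 inhibitors. Of 5 other Hes-type genes, 3 had a promoter peak in either list, and it was higher at 2 of them.

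Promoter peaks were listed in the list labelled WT only at Dll3, a ligand that does not activate its receptor on neighbours, at Furin, a convertase that cleaves the receptor, and at Snw1, a nuclear cofactor. They were listed in the list labelled Bmi1-/- only at Dlk2, Rfng, Nrarp, Dtx3l and Hes3. Such genes numbered 3 labelled WT and 5 labelled Bmi1-/- of 46, beside 1338 and 3342 of 21938 protein-coding genes. Nrarp, a target that feeds back on the Notch complex, was at percentile 80.8 and Dtx3l at 90.3. Hes2 and Helt had none. The 5 largest gaps between the lists were all toward the list labelled Bmi1-/-. Poglut1, which adds glucose to the receptor, was at percentile 2.27 with 14 reads labelled WT and at 95.3 with 30 reads labelled Bmi1-/-. In the same order, Neurl1a, a ubiquitin ligase for ligands, was at 14.6 and 92.5, and Dtx1, a Deltex protein, at 4.46 and 80.1. Mfng, a relative of Lfng, was at 6.07 and 80.9, and Mib2, another ubiquitin ligase for ligands, at 35.1 and 96.7. Only at Mib2 did the strongest peaks themselves overlap. Atoh1, which Hes proteins repress, had an overlapping pair at percentiles 56.8 and 44.0, with 18 and 20 reads.

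**Figure D4:**
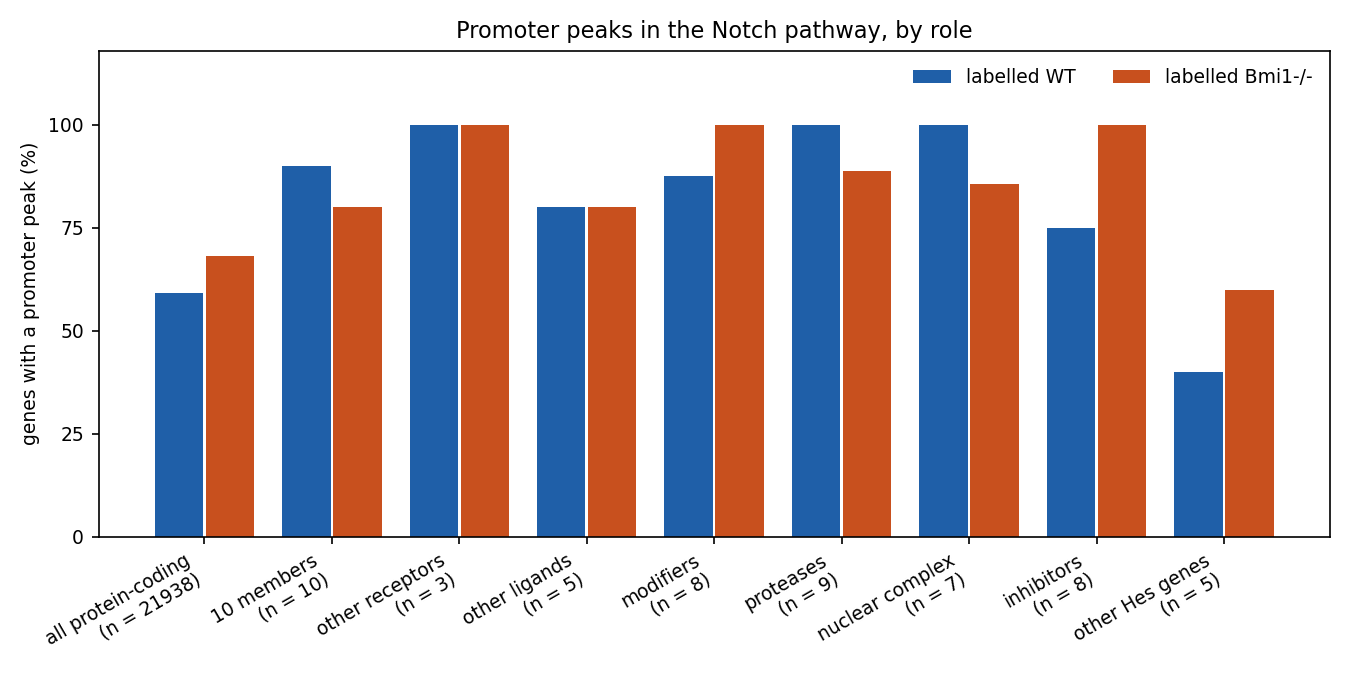
Percent of genes with a promoter peak (y axis) in the list labelled WT and the list labelled Bmi1-/- for all protein-coding genes, the 10 genes described here and the other Notch pathway genes by role, with the number of genes under each pair of bars. The 10 genes stand at 90.0% and 80.0%, and all protein-coding genes at 59.1% and 68.2%.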

How the data were processed

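ATAC-seq peaks of the OC at P2 were analysed, as 1 deposited list per genotype, and the genotype of each list was taken from its GEO labels. Paired-end 150 bp reads had been mapped by the authors with BWA-MEM, and MACS2 had been run on each library separately. Versions and options are not given in the sources used here, and the submitters' processing notes name mm10. Fold enrichment, as deposited, is the ratio of pileup plus 1 to local background plus 1. The deposited −log10 p is the Poisson tail of that pileup, and the deposited −log10 q is its adjusted value; as listed peaks with a −log10 p above 2 have a −log10 q below 1, the adjustment covered more than the listed peaks. A deposited score, 10 times −log10 p, was not used. Reads and background at each summit were solved from fold enrichment and −log10 p, which gave whole reads, within 0.05, for 100% of peaks, and the solver was tested on simulated data. Read totals are unknown, and the solved background stands in for depth.

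Unplaced sequences were left out (230 and 237 peaks). Starts were taken from GENCODE vM21. Shares have exact binomial intervals and read ratios exact conditional intervals, and no test between genotypes was made. Python 3.11.15, numpy 2.4.6, pandas 2.3.3, scipy 1.17.1, matplotlib 3.10.9 and samtools 1.23.1 were used. The members, the pathway list and the markers, 10 per cell type, were chosen with earlier results of these data known. All 10 members were named. Of the other pathway genes, those without a promoter peak in at least 1 list and the 5 with the largest difference of percentile were named, with Atoh1 and the receptors for their role. Alternatives changed the q threshold, the number of peaks, the annotation, the windows and the overlap. RNA-seq and ChIP-seq were not analysed here.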

Additional observations from a re-analysis of the deposited data

How the results depend on the processing

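Of 72 alternative values, 59 stayed within 1.5 times the reported count or within the interval of the reported share. The order of the lists turned in some. At a −log10 q of at least 5, promoter peaks remained at 1 gene labelled WT and 4 labelled Bmi1-/-, with overlap at 1. The regions then held 1 and 5 peaks, of which 100% and 20% overlapped, and 9 and 16 of the other pathway genes had a promoter peak. With a q-value under 0.05, a promoter peak was present at 6 genes labelled WT and 7 labelled Bmi1-/-, in place of 9 and 8, the regions held 16 peaks labelled WT and 25 other pathway genes had a promoter peak in that list. With the longer list cut to the length of the shorter, the regions held 31 peaks labelled WT and 28 labelled Bmi1-/-, in place of 31 and 33, and the overlapping shares were 41.9% and 42.9%, in place of 48.4% and 42.4%. A reciprocal overlap of at least 50% lowered the overlapping shares to 25.8% labelled WT and 24.2% labelled Bmi1-/-. The stricter thresholds leave fewer peaks by construction. The genes with the higher percentile labelled Bmi1-/- were 4 of the 9 with a promoter peak in either list. In the alternatives they ranged from 3 of 9 to 5 of 7 (q-value under 0.05), apart from 4 of 4 at a −log10 q of at least 5. Both q thresholds took percentiles anew among the peaks kept. At the stricter one only Notch1 kept a promoter peak labelled WT. Jag1, Hes1 and Hey2 thus counted as higher by construction, and 4 of 4 says nothing about rank at these genes. The alternative with principal starts only was chosen after seeing the data. No paired analysis was possible because each genotype has 1 library, and for the same reason no replicate could be left out. Depth limits the lists to summits of about 13 reads or more labelled WT and 15 labelled Bmi1-/- at the commonest background.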
